A study of Mus musculus with 18 samples.

Results

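The replication-dependent histone genes were taken as the rows of the expression table whose symbol begins with Hist1h, Hist2h, Hist3h or Hist4 and whose mean over the 18 samples was at least 10 normalised counts. Of 68 such rows, 52 reached this mean, and they were among 11992 genes tested of 37236 in the table. They comprised 5 genes for linker histone H1, 13 for H2A, 13 for H2B, 9 for H3 and 12 for H4. Just inside the limit were Hist2h2ab, with a mean of 10.6, and Hist1h3b, with 10.1, and just outside were Hist1h3d, with 8.05, and Hist1h2bn, with 7.42. Of the 16 rows below the limit, 7 held no read in any sample.

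The samples were CD3+ T cells sorted from subcutaneous B16-OVA tumors, a mouse melanoma line that carries ovalbumin, 14 days after injection of 500000 tumor cells into C57BL/6 mice, which the methods give as 8 to 12 weeks old for tumor injections. Nr2f6+/+ mice and Nr2f6-/- mice backcrossed to this background received 0.5 mg of a control antibody, IgG2b, or of an antibody to PD-L1 (αPD-L1) from day 3, repeated within each week. This gave 4 groups, with 3 samples of each genotype under IgG2b and 6 of each genotype under αPD-L1. No Cre or tissue-specific promoter was named for the Nr2f6-/- mice, so the loss is not taken as confined to T cells, and the injected tumor cells were the same line in all groups. CD4 and CD8 cells were pooled before the CD3 sort, and neither labels nor methods state how many tumors went into a sample. The libraries were numbered 28 to 39 (set 1, replicates 1 to 3 of every group) and 43 to 48 (set 2, which held replicates 4 to 6 of both αPD-L1 groups). What separates the sets was not stated, and IgG2b samples were in set 1 only.

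Nucleosomes wrap DNA around a core of histones H2A, H2B, H3 and H4, and linker histone H1 binds the DNA between them. The genes studied here are switched on in S phase, when newly copied DNA must be packed, and are shut off when replication stops. They typically have no introns (2 members, Hist1h2bc and Hist1h2be, have an annotated transcript with 2 exons), and their mRNAs usually end in a short stem-loop, bound by the protein SLBP, in place of a poly(A) tail, although some are also made with a tail, mostly in cells that leave the cycle. Library preparation primed on poly(A), so a count here is a count of the histone RNA that this kit captured, and mRNA that ends at the stem-loop and tailed RNA were not told apart.

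The stem-loop was searched in GENCODE vM21 transcripts (build GRCm38, the same assembly as mm10) because it sets how these mRNAs end. It was found in 36 of 52 members, in 8 different sequences, against 0.17% of 21810 protein-coding genes without a histone row. Many of the other 16 models end at or just after the stop codon, so the window where the loop would lie was not in the sequence searched. The most frequent form was shared by 18 members of H1, H2A, H2B and H3, and a form with another stem was found in 6 H4 genes. The loops of the members on which the results turn are given here with 5 bases on each side, 5′ to 3′ as DNA letters, the 16 bases of the stem-loop in capitals.
Hist1h1e: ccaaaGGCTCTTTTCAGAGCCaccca
Hist1h1d: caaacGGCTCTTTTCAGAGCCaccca
Hist1h1c: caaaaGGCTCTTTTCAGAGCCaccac
Hist1h2ae: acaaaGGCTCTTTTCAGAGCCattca
Hist1h3c: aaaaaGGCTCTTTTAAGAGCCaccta
Hist1h4i: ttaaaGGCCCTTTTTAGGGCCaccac
Hist1h4d: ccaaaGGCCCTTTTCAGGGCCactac
These lie on chromosome 13 in the Hist1 cluster, for example chr13:23621782-23621797 on the minus strand for Hist1h1e. The 43 Hist1 members lay between chr13:21715763-23764406, with 6 Hist2 members on chromosome 3, 2 Hist3 members on chromosome 11 and Hist4h4 on chromosome 6.

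The annotated transcript ran on for more than 100 bases past the stem-loop in 19 members, among them Hist1h1e with 1153 bases, Hist1h1c with 840.0 bases and Hist1h1d with 4884 bases. A poly(A) signal, AATAAA or ATTAAA, was found in the last 50 bases of 10 of these 19 models, in 1 of 17 that ended near the loop and in 1 of 16 without a loop. Histone genes are near copies of each other, and 46 of 52 members shared at least one stretch of 50 bases with another histone row, 21 of them over more than 50% of such stretches. For all 46, reads from shared stretches may have been assigned to the wrong copy, since only the primary alignment of a multiply mapped read was kept. Reads down to 22 nucleotides were kept, and shared stretches shorter than 50 bases were not searched. The gene models of 5 members overlapped another gene on the same strand, among them Hist1h1e, which overlaps Hist1h2be, and 16 overlapped one on the other strand. Of the genes described most closely, Hist1h1b shared 0% of its stretches, Hist1h1d 2.21%, Hist1h1c 8.54%, Hist1h4d 10.2%, Hist1h4i 28.9%, Hist1h1e 32%, Hist1h2ae 43.2% and Hist1h3c 47%.

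In the 300 bases around the RefSeq start sites (GRCm38.p6, 250 before and 50 after, both strands), 47 members had an entry. A CCAAT box was found in 39 of 47, in all 36 of H1, H2A, H2B and H3 and in 3 of 11 H4 genes, against 37.4% of 32851 promoters. TATAAA was found in 59.6% of members and in 13.6% of all promoters. The octamer ATTTGCAT was found in 6 of 13 H2A and 5 of 11 H2B genes and in 1.74% of all promoters, and AAACACA, the H1 box, in 4 of 5 H1 genes and in 7.18% of all promoters. These are matches of letters and were not tested as binding sites.

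Nr2f6 had no read in the 9 Nr2f6-/- samples. Reads counted on genes ranged from 12473391 to 18609482 per sample, and 3 reads, taken as the limit of detection, corresponded to 2.46 to 3.64 normalised counts. Macrophage and monocyte markers were lower with αPD-L1 in both genotypes (14 of 14 with a negative log2 fold change in each), the called ones being Lyz2 and Arg1 in Nr2f6+/+ and Lyz2 and C1qb in Nr2f6-/- mice. The 6 melanoma markers summed to 736 to 7119.8 normalised counts per sample, against 109573 to 186834 for 12 T cell markers. Of 6 B cell markers, Cd79a was at 0 in every sample, while Ighm and Igkc were read. In sorted bulk samples, fewer cycling cells and less histone RNA per cell cannot be told apart.

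Together the 52 histone genes contributed 4396 to 12328 normalised counts per sample under αPD-L1 and 3959.5 to 6687 under IgG2b. In Nr2f6+/+ IgG2b mice the sums were 6321, 6687 and 4803, and in Nr2f6-/- IgG2b mice 6527, 3959.5 and 4863. In Nr2f6+/+ αPD-L1 mice they were 6759, 12328 and 9023 in set 1 and 7359, 7395 and 7474 in set 2. In Nr2f6-/- αPD-L1 mice they were 6082, 4396 and 4549 in set 1 and 9513, 8127 and 11609 in set 2. Under αPD-L1 each Nr2f6-/- sample of set 1 lay below each Nr2f6+/+ sample of set 1, and each Nr2f6-/- sample of set 2 lay above each Nr2f6+/+ sample of set 2. The ratio of the Nr2f6-/- to the Nr2f6+/+ mean was 0.535 in set 1 and 1.32 in set 2.

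**Figure D1:**
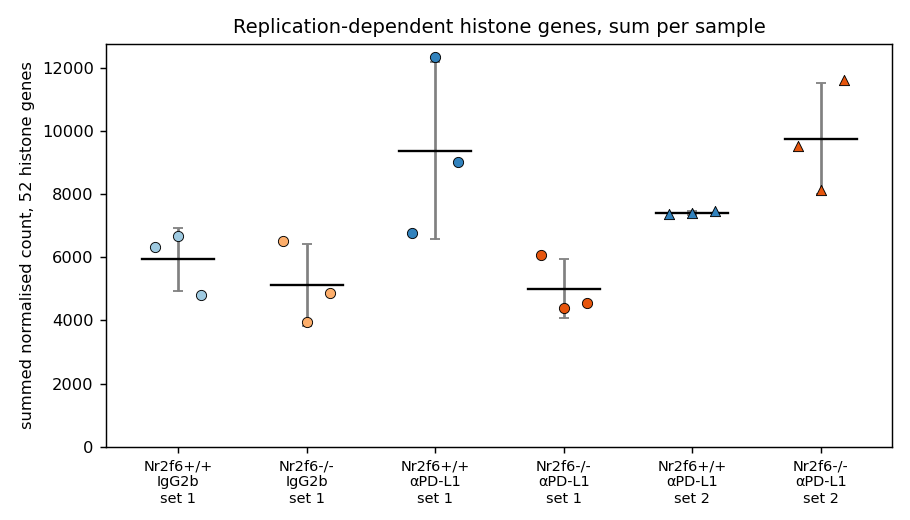
Summed normalised count of the 52 histone genes (vertical axis, linear from 0) in each of 18 samples, by group and library set; points are samples (circles set 1, triangles set 2), black lines means and grey bars SD. In set 1 the Nr2f6-/- αPD-L1 samples (4396 to 6082) lie below the Nr2f6+/+ αPD-L1 samples (6759 to 12328), and in set 2 (8127 to 11609) above them (7359 to 7474).

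The types did not all follow the sum. For H1, the linker histones, the αPD-L1 sums in set 1 were 1944 to 3989 in Nr2f6+/+ and 631 to 1169.8 in Nr2f6-/- mice without overlap, and in set 2 they were 1640.4 to 2983 and 2441 to 2593, overlapping. For H3, a core histone, the ranges were 889 to 2748 against 421 to 548 in set 1 and 706 to 872 against 953 to 1332 in set 2, without overlap in either. For H2A they were 1551 to 2979 against 1140.0 to 1400.4 in set 1 and 1153 to 1579 against 1719.9 to 2433 in set 2, again without overlap. For H2B and H4 the genotypes overlapped in both sets, and the ratio of means was 0.793 and 1.06 in set 1 and 1.51 and 1.15 in set 2. Nr2f6+/+ αPD-L1 replicate 2 had the highest sum of all 18 samples for H1, H2A and H3, and without it the median log2 fold change of the 52 members in set 1, given in the next comparison, was -0.84 in place of -0.78.

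**Figure D2:**
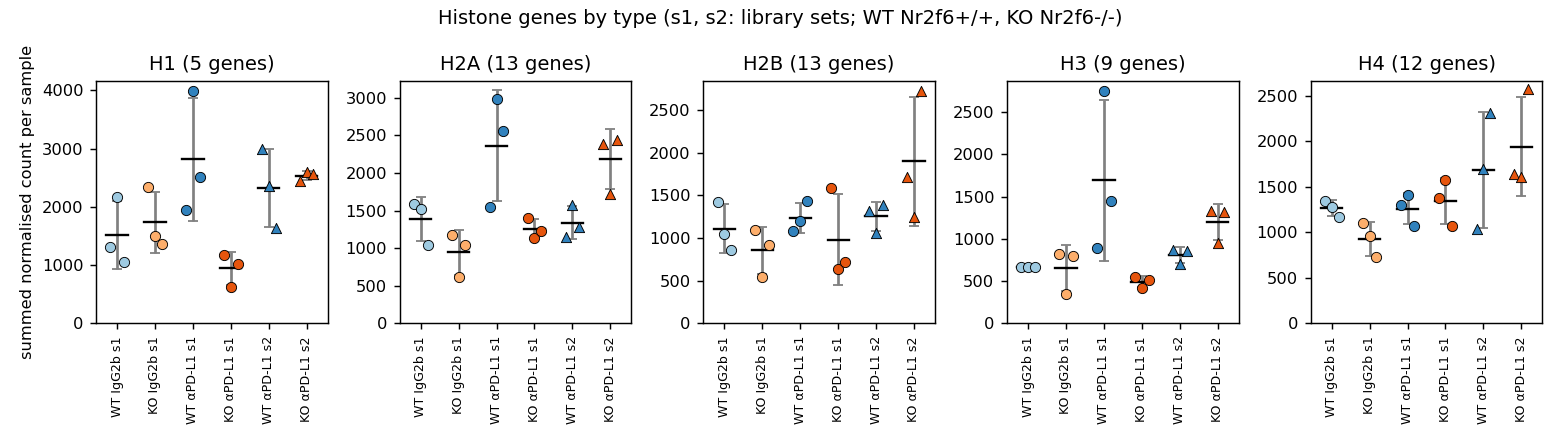
Summed normalised count per sample (vertical axes, linear from 0, scaled to each panel) of the H1, H2A, H2B, H3 and H4 genes by group and library set; points are samples, black lines means, grey bars SD. H1, H2A and H3 sums of Nr2f6-/- αPD-L1 samples lie below those of Nr2f6+/+ αPD-L1 samples in set 1, while H2B and H4 overlap in both sets.

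To ask whether loss of Nr2f6 changed histone RNA under PD-L1 blockade, log2(normalised count + 1) was compared between genotypes with limma within each library set. In set 1, 37 of 52 histone genes had a negative and 15 a positive log2 fold change, where 51.4% of all genes were positive. Their median was -0.78 on this scale against 0.03 for all 11992 genes. All 5 H1 and all 9 H3 genes were on the negative side, with medians of -1.98 and -1.54, and H2A, H2B and H4 had medians of -0.44, -0.32 and 0.06. No member passed an adjusted p of 0.05 (limma, Benjamini-Hochberg over all genes), where 0.709% of all genes did, and edgeR also called 0. The share of all genes called by edgeR is not given beside its counts of members, here and below, so these counts stand without a background. DESeq2 on the recovered reads called 5 members, where it called 3.22% of 11655 genes with an adjusted p, all 5 lower in Nr2f6-/- mice, namely Hist1h1d, Hist1h1e, Hist1h2ae, Hist1h3c and Hist1h3f. Of these, Hist1h3f lay under the limit of 3 reads in Nr2f6-/- samples, with 1, 1 and 2 reads against 51, 160 and 25 in Nr2f6+/+ samples. Before adjustment 9 members had a p under 0.05 and were lower and 0 were higher, against 5.45% and 4.83% of all genes. The samples did not overlap for 11 members that were lower and for 2 that were higher, Hist1h2an and Hist1h2bh, against 6.8% and 6.58% of all genes.

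Hist1h1e encodes a somatic linker histone. It had 641.2, 1478 and 759 normalised counts in set 1 of Nr2f6+/+ αPD-L1 and 139, 291 and 287 in set 1 of Nr2f6-/- αPD-L1, so all Nr2f6-/- samples were lower. In set 2 the counts were 1577, 798 and 432 in Nr2f6+/+ and 513, 677 and 696 in Nr2f6-/- mice, which overlapped. The log2 fold change was -1.98 ± 0.54 (SE, limma adjusted p = 0.0893) in set 1 and -0.39 ± 0.54 (adjusted p = 0.903) in set 2. Over both sets it was -1.19 ± 0.42 (adjusted p = 0.328), the lowest p of the 52 members in that comparison.

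Hist1h1d and Hist1h1c are further somatic linker histone genes. Hist1h1d had 204, 1193 and 342 normalised counts in Nr2f6+/+ and 11.2, 72.9 and 109 in Nr2f6-/- αPD-L1 samples of set 1, without overlap. In set 2 it had 211, 155 and 223 in Nr2f6+/+ and 616, 590.1 and 128 in Nr2f6-/- samples, 2 of which were above all Nr2f6+/+ samples. The log2 fold change of Hist1h1d was -3.24 ± 0.89 (limma adjusted p = 0.0893) in set 1 and 0.89 ± 0.89 (adjusted p = 0.831) in set 2. Hist1h1c had 573, 695 and 866 against 307, 118 and 328 normalised counts in set 1. In set 2 the order was turned, with 230.1, 576 and 261 in Nr2f6+/+ against 556, 573 and 916 in Nr2f6-/- mice, where the genotypes overlapped. Its log2 fold changes were -1.61 ± 0.51 (limma adjusted p = 0.18) and 1.02 ± 0.51 (adjusted p = 0.608).

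Among core histones, Hist1h3c, an H3 gene, had 411, 1276 and 689 normalised counts in Nr2f6+/+ and 278, 92.0 and 194 in Nr2f6-/- αPD-L1 samples of set 1. In set 2 it had 640.3, 313 and 377 in Nr2f6+/+ and 437.5, 555 and 610.5 in Nr2f6-/- samples. Its genotype difference of -2.05 ± 0.55 log2 in set 1 had an adjusted p of 0.0815 by limma and that of 0.32 ± 0.55 in set 2 an adjusted p of 0.924. Without Nr2f6+/+ αPD-L1 replicate 1, Hist1h3c passed in set 1 (log2 fold change -2.45, limma adjusted p = 0.0361), the only member to pass in any limma fit that left out 1 sample. In that fit 1.36% of all genes passed. The samples of Hist1h2ae, an H2A gene, did not overlap in either set, with opposite signs. How many of all genes had this pattern was not counted, so it was not read as particular to Hist1h2ae. Taken singly, 6.8% of all genes were lower without overlap in set 1 and 5.5% higher in set 2. Hist1h2ae had 410.4, 974 and 392 against 179, 135 and 200.5 normalised counts in set 1 and 251, 458 and 141 against 599, 483 and 495 in set 2. The log2 fold changes of Hist1h2ae were -1.67 ± 0.60 (limma adjusted p = 0.263) and 1.04 ± 0.60 (adjusted p = 0.666).

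**Figure D3:**
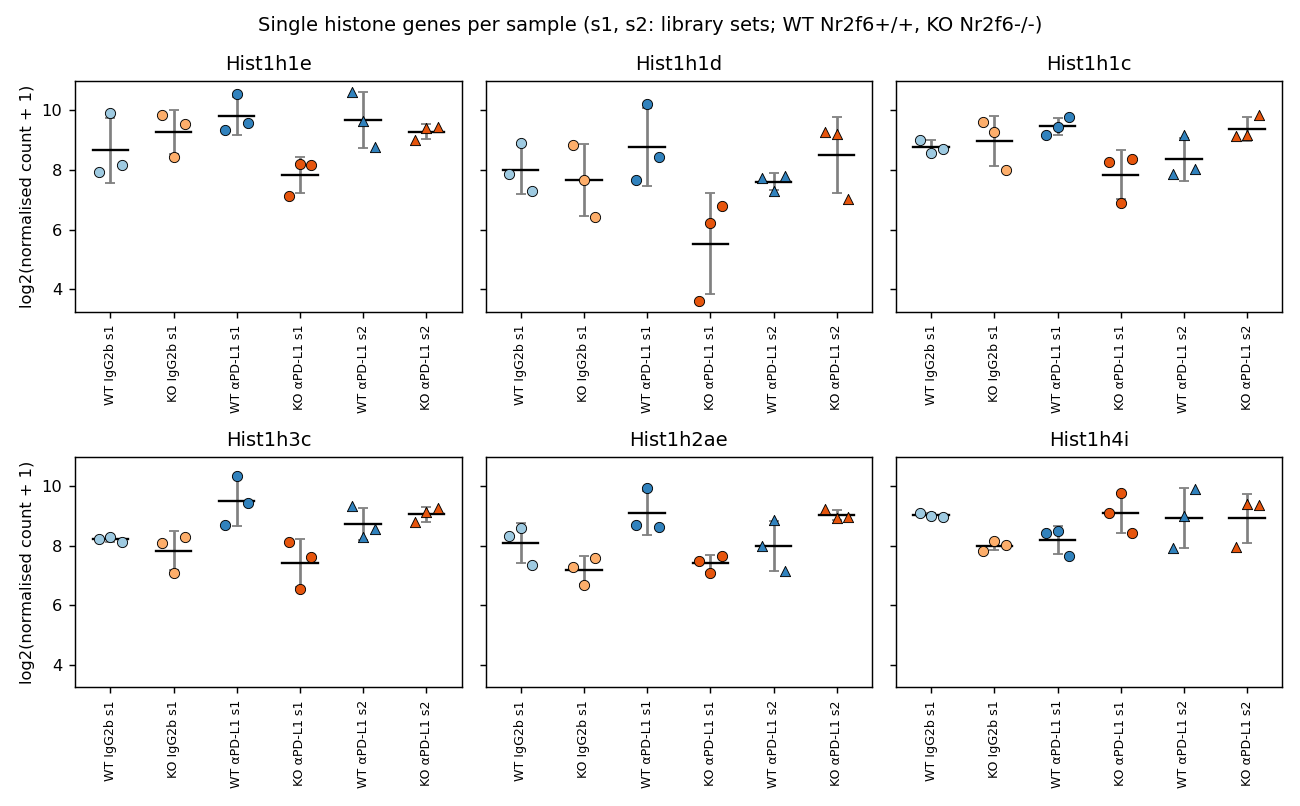
log2(normalised count + 1) (vertical axes, shared) of 6 histone genes in each sample by group and library set (s1, s2); points are samples, black lines means and grey bars SD. In set 1 the Nr2f6-/- αPD-L1 samples lie below the Nr2f6+/+ αPD-L1 samples for Hist1h1e, Hist1h1d, Hist1h1c, Hist1h3c and Hist1h2ae, whereas Hist1h4i overlaps in both sets.

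Hist1h4i, an H4 gene, did not follow these genes. It had 343, 355 and 199 normalised counts in Nr2f6+/+ and 538, 870.0 and 345 in Nr2f6-/- αPD-L1 samples of set 1, a log2 fold change of 0.91 ± 0.53 (limma adjusted p = 0.598). In set 2 its log2 fold change was -0.01 ± 0.53. The members at the positive end in set 1 were Hist1h4i, Hist1h4n and the H2B gene Hist1h2bh. Hist1h4n had a log2 fold change of 2.28 ± 1.42 (limma adjusted p = 0.633). Hist1h2bh had few reads, with 0, 1.02 and 0 normalised counts in Nr2f6+/+ and 11.2, 6.08 and 52.2 in Nr2f6-/- samples.

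In set 2, 38 of 52 histone genes had a positive and 14 a negative log2 fold change, where 48.4% of all genes were positive, with a median of 0.86 against -0.01 for all genes. All 13 H2A genes were on the positive side (median 1.04), and H3, H4, H2B and H1 had medians of 1.19, 1.24, 0.22 and 0.04. No member passed an adjusted p of 0.05 by limma, where 0.0334% of all genes did, nor by edgeR, nor by DESeq2, where 2.16% of all genes did. With no adjustment, 1 member had a p under 0.05 and was higher and 0 were lower, against 3.95% and 4.38% of all genes. The samples of 3 members did not overlap and were higher in Nr2f6-/- mice, against 5.5% of all genes. These were Hist1h2ae, the H2B gene Hist1h2bk and Hist4h4, an H4 gene outside the main clusters. Hist4h4 had 0, 34.5 and 66.1 normalised counts in Nr2f6+/+ and 226, 252 and 162 in Nr2f6-/- samples of set 2 (log2 fold change 3.98 ± 1.86, limma adjusted p = 0.579). Hist1h2bk had 222, 138 and 142 against 249, 336 and 742 normalised counts. Of the members at the negative end, Hist1h2bm had 109.5, 168 and 42.0 against 0.999, 9.90 and 51.1 normalised counts, Hist1h2bl had a log2 fold change of -3.16 ± 1.83 and Hist1h2bp of -2.25 ± 2.05.

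Set against each other, 29 of 52 histone genes were lower in Nr2f6-/- mice in set 1 and higher in set 2, where 21.8% of all genes were. A further 8 were lower in both, 9 higher in both and 6 higher in set 1 and lower in set 2, against 25.8%, 26.3% and 24.7% of all genes. The 29 comprised 10 of 13 H2A, 7 of 9 H3, 6 of 13 H2B, 3 of 5 H1 and 3 of 12 H4 genes. The difference between the sets in the genotype difference had a median of 1.66 log2 over the members, against -0.06 over all genes, and 39 members were positive and 13 negative, where 47.5% of all genes were positive. It was tested gene by gene in 1 model and passed for no member by limma or edgeR, where 0.0584% of all genes passed. By DESeq2 it passed for 3, Hist1h1c, Hist1h1d and Hist1h2ae, where 2.27% of all genes passed. Unadjusted, with p under 0.05, 6 members were positive and 0 negative, against 3.94% and 3.89% of all genes. The difference was 2.64 ± 0.73 for Hist1h1c (limma adjusted p = 0.256), 4.13 ± 1.25 for Hist1h1d (adjusted p = 0.334) and 2.71 ± 0.84 for Hist1h2ae (adjusted p = 0.352). At the other end were Hist1h2bm with -4.33 ± 2.49, Hist1h2bl with -3.37 ± 2.59 and Hist1h4i with -0.92 ± 0.75. Members whose annotated transcripts ran on past the stem-loop had medians of -0.72 in set 1 and 1.04 in set 2, those that ended near it -0.32 and 0.32, and the 16 without a stem-loop in the model -0.94 and 0.79. The 21 members that shared more than 50% of their stretches had medians of -0.72 and 0.76, and the other 31 had -0.83 and 0.89.

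**Figure D4:**
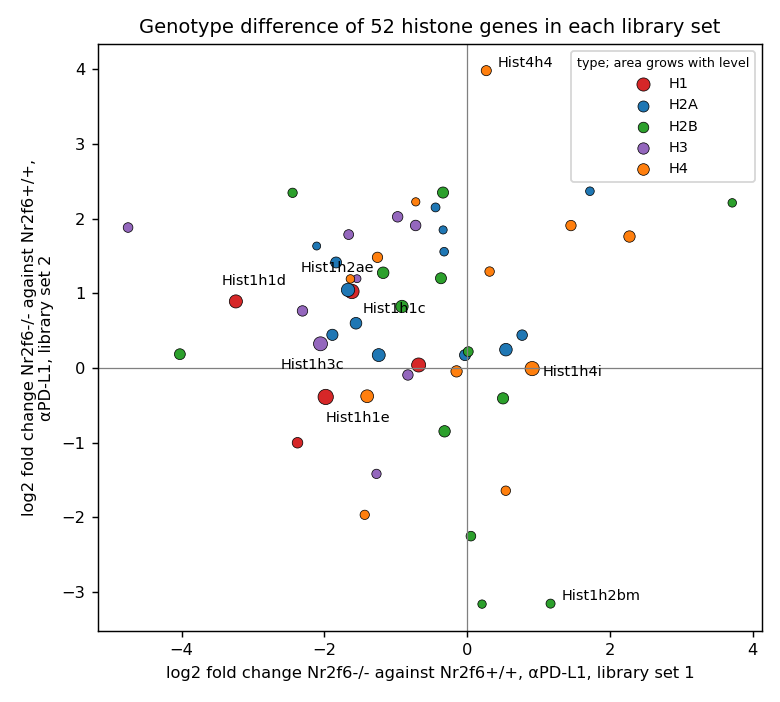
log2 fold change of Nr2f6-/- against Nr2f6+/+ mice under αPD-L1 for each of 52 histone genes in library set 1 (horizontal axis) and set 2 (vertical axis); colour gives the type and area grows with the mean count. The upper left part, lower in set 1 and higher in set 2, holds 29 genes.

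Other genes of histone supply and of the cell cycle were compared in the same way. The S phase list had medians of 0.03 in set 1 and -0.02 in set 2 over 29 genes, and 0 genes passed by limma in either set. Its summed counts under αPD-L1 were 70258 to 77050.5 in Nr2f6+/+ and 68727 to 80665 in Nr2f6-/- mice in set 1, and 70551 to 88466 and 70552 to 80575 in set 2. The replicative helicase subunits Mcm6 and Mcm3 had log2 fold changes of -0.43 and 0.03 in set 1 and of 0.22 and -0.48 in set 2. The 18 genes of G2 and mitosis summed to 43153 to 45115 and 40611 to 47021 in set 1 and to 41478 to 46577 and 44158 to 53366 in set 2. Of these Top2a, which untangles DNA, had log2 fold changes of 0.41 and 0.21 and Birc5, which acts in chromosome segregation, of 0.14 and 0.02. The 10 replication-independent variant histones, whose mRNAs carry poly(A) tails, had medians of 0.23 and 0.07, with H3f3b at 0.21 and 0.07 and H2afv at -0.07 and 0.12. Histone chaperones, which hand histones to DNA, had medians of 0.05 and -0.04, with Anp32e at 0.49 and -0.09 and Rbbp4 at 0.07 and -0.01. Genes of histone mRNA synthesis and end processing had medians of 0.12 in set 1, with 11 of 18 positive, and -0.09 in set 2, with 7 of 18 positive, while Cpsf2 was at -0.08 and 0.04 and Ncbp1 at -0.21 and 0.01. Their sums in set 1 were 12897 to 14343.5 in Nr2f6+/+ and 14702 to 14985 in Nr2f6-/- mice, without overlap, and in set 2 15447 to 17210.1 and 13239.6 to 16036, overlapping. Under IgG2b, 22 of 29 S phase genes were higher in Nr2f6-/- mice and 7 lower, with a median of 0.25, where 45.6% of all genes were positive. At an unadjusted p under 0.05 (limma), 7 were higher and 2 lower, against 2.03% and 3.32% of all genes. The S phase sums under IgG2b were 64479.5 to 71977 in Nr2f6+/+ and 73570 to 91795 in Nr2f6-/- mice, without overlap. None of these 5 lists had a gene that passed by limma in any comparison.

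**Figure D5:**
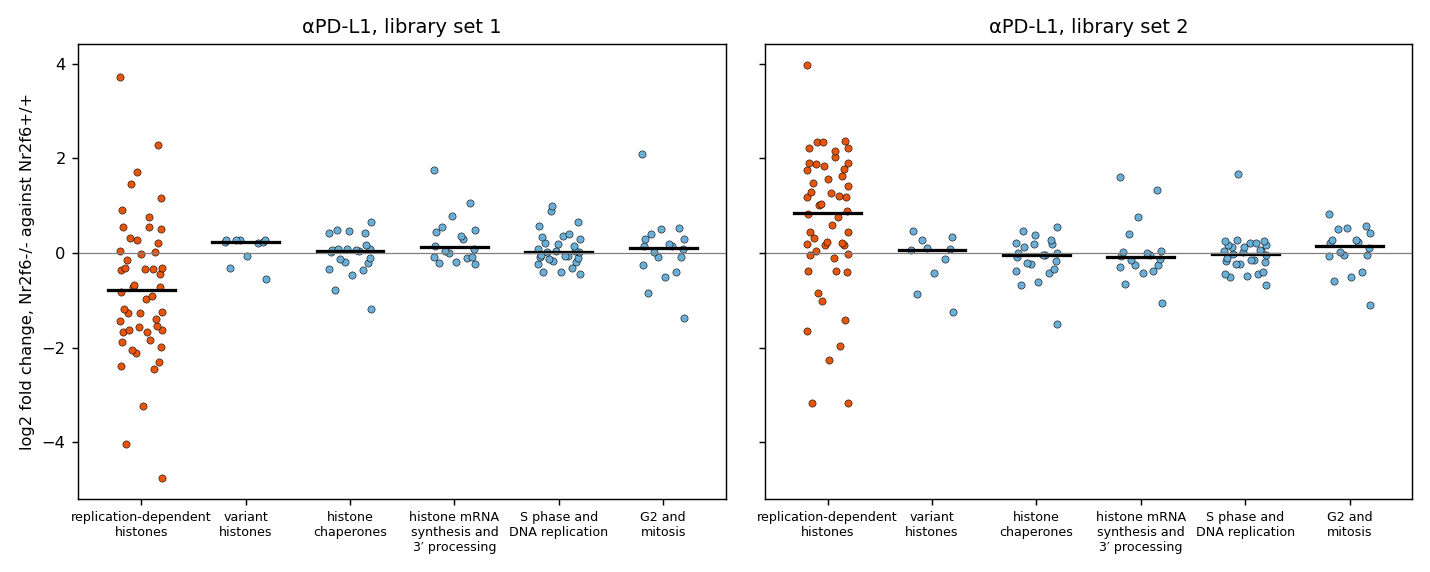
log2 fold change of Nr2f6-/- against Nr2f6+/+ mice under αPD-L1 in library set 1 (left) and set 2 (right) for 6 gene lists; each point is a gene and black lines are medians. The histone median is -0.78 in set 1 and 0.86 in set 2, and that of the S phase list 0.03 and -0.02.

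Markers of other cells were read beside these differences. Macrophage and monocyte markers summed to 1680.3 to 4707 in Nr2f6+/+ and 1126 to 2618 in Nr2f6-/- αPD-L1 samples of set 1 and to 1895 to 6817 and 926 to 1956 in set 2. Melanoma markers summed to 2013 to 4316 and 826 to 4353 in set 1 and to 2987 to 7119.8 and 736 to 3746 in set 2. T cell markers summed to 130601 to 174845 and 176719 to 186834 in set 1 and to 121708 to 129723 and 160888 to 176726 in set 2. The T cell sum was thus higher in Nr2f6-/- samples of both sets, without overlap. Of the 12 single T cell markers, 11 had a positive log2 fold change in set 1 and 9 in set 2. The others were negative, 1 in set 1 and 3 in set 2, and 0 passed by limma in either set. RNAs that normally lack a poly(A) tail summed to 448 to 561 and 493 to 834 in set 1 and to 183 to 330.2 and 395 to 1022 in set 2. The part of these RNAs and cell types in the histone differences was not tested.

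Pooled over both sets, the genotypes under αPD-L1 showed 23 histone genes with a positive and 29 with a negative log2 fold change, where 49.6% of all genes were positive, with a median of -0.14 against -0.0049 for all genes. No member passed by limma, edgeR or DESeq2, where 0.175% of all genes passed by limma and 1.57% by DESeq2. At an unadjusted p under 0.05, 1 member was higher and 1 lower, against 4.66% and 5.07% of all genes. All 5 H1 genes were on the negative side, with a median of -1.18. Besides Hist1h1e, the members at the negative end were Hist1h3c (-0.87 ± 0.45) and Hist1h4d (-0.89 ± 0.54). At the positive end were Hist1h2bh (2.96 ± 1.33), Hist1h4n (2.02 ± 1.0) and Hist1h2ac (2.04 ± 1.13). Hist1h2bh was the 1 member that was higher at an unadjusted p under 0.05. It reached the mean of 10 only with the Nr2f6-/- αPD-L1 samples counted, with 196 normalised counts in replicate 5 of that group. Its difference is thus not independent of the choice of members. Between the sets, irrespective of genotype, 31 members were higher and 21 lower in set 2, where 49% of all genes were higher, and none passed by limma, edgeR or DESeq2, where 0.517% of all genes passed by limma and 4.02% by DESeq2. The unadjusted p was under 0.05 for 2 members that were higher and 1 that was lower, against 5.73% and 5.32% of all genes. The members at the ends were Hist1h2bk (1.87 ± 0.71), Hist1h1b (0.87 ± 0.37) and Hist1h1e (0.66 ± 0.38) on the higher side and Hist1h3g (-2.62 ± 1.17), Hist1h3b (-1.81 ± 1.25) and Hist1h2bc (-1.12 ± 0.83) on the lower side. Of these, Hist1h3b, with a mean of 10.1, reached the limit of 10 only with the αPD-L1 samples of set 1 counted. Its difference between the sets is thus not independent of the choice of members.

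The response to PD-L1 blockade was compared within each genotype. In Nr2f6-/- mice, 38 histone genes had a positive and 14 a negative log2 fold change, where 47.1% of all genes were positive, with a median of 0.51 against -0.04 for all genes. All 13 H2A genes and 10 of 12 H4 genes were on the positive side, with medians of 0.90 and 0.67. No member passed by limma or edgeR, where 0.325% of all genes passed by limma, and by DESeq2 2 passed, Hist1h2bk and Hist1h4f, where 1.96% of all genes passed. Before adjustment 8 members had a p under 0.05 and were higher and 0 were lower, against 4.34% and 5.35% of all genes. In library set 1 alone, where both antibodies were represented, the median was 0.06 and 27 of 52 members were higher.

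Hist1h4f, an H4 gene, had 15.2, 1.88 and 7.29 normalised counts in Nr2f6-/- IgG2b mice and 30.4 to 239 (median 64.3) in the 6 Nr2f6-/- αPD-L1 samples, without overlap. Its log2 fold change was 3.43 ± 1.17 (limma adjusted p = 0.27). The samples did not overlap for 4 members, all higher with αPD-L1, against 1.97% of all genes, namely Hist1h4f, Hist1h2bk, Hist1h2ac and Hist1h2ai. Hist1h2bk had 31.4, 27.3 and 19.8 normalised counts in Nr2f6-/- IgG2b samples, all of set 1. With αPD-L1 it had 58.6, 40.8 and 38.9 in set 1 and 249, 336 and 742 in set 2. Set 2 held no IgG2b sample, so for Hist1h2bk library set and blockade cannot be told apart there. Also at the positive end were Hist1h2bj (3.38 ± 1.24) and Hist1h2ak (3.09 ± 1.14). At the negative end were Hist1h1e (-0.71 ± 0.52), Hist1h2bp (-2.20 ± 1.75) and Hist2h2be (-1.01 ± 0.85).

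In Nr2f6+/+ mice, 28 histone genes had a positive and 24 a negative log2 fold change with αPD-L1, where 42.6% of all genes were positive, with a median of 0.13 against -0.10 for all genes. All 5 H1 genes were on the positive side with a median of 1.08, and 9 of 12 H4 genes on the negative side with a median of -0.45. The αPD-L1 samples came from both library sets and the IgG2b samples from set 1 only, so these values do not separate blockade from library set. No member passed by limma, edgeR or DESeq2, where 0.242% of all genes passed by limma and 0.801% by DESeq2. At an unadjusted p under 0.05, 4 members were higher and 0 lower, against 2.19% and 5.05% of all genes. Hist1h1b, a linker histone gene, had 295, 293 and 183 normalised counts with IgG2b and 350.2 to 659 (median 589) with αPD-L1, and Hist1h4d had 109.8, 96.9 and 176 against 294 to 485 (median 364). These were the only 2 members without overlap of samples, both higher, against 1.32% of all genes. Their log2 fold changes were 1.1 ± 0.50 for Hist1h1b (limma adjusted p = 0.638) and 1.58 ± 0.67 for Hist1h4d (adjusted p = 0.586), and that of Hist1h1e was 1.08 ± 0.52. At the negative end were Hist2h4 (-1.98 ± 1.35), Hist1h2ah (-2.43 ± 1.66) and Hist1h3b (-2.0 ± 1.57). Hist1h2ah and Hist1h3b, with means of 13.1 and 10.1, reached the limit of 10 only with the Nr2f6+/+ IgG2b samples counted. Their lower values against that group are thus not independent of the choice of members. With quantile normalisation the median of the members was 0.70 and 36 were higher, and with edgeR or DESeq2 38 were, whereas with equal totals 27 were.

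Under IgG2b, where 3 samples stood against 3, 16 histone genes had a positive and 36 a negative log2 fold change in Nr2f6-/- mice, where 45.6% of all genes were positive, with a median of -0.54 against -0.06 for all genes. No member and no other gene passed by limma, 0% of 11992, and no member passed by edgeR or by DESeq2, which called 0.75% of all genes. At an unadjusted p under 0.05, 1 member was lower and 0 higher, against 3.32% and 2.03% of all genes. The samples did not overlap for 7 members that were lower and 2 that were higher, against 8.07% and 6.1% of all genes. Hist1h4i had 540.3, 512 and 494 normalised counts in Nr2f6+/+ and 227, 281 and 260.2 in Nr2f6-/- IgG2b mice, without overlap (log2 fold change -1.01 ± 0.54, limma adjusted p = 0.937). Hist1h4f had 25.5, 132 and 43.1 against 15.2, 1.88 and 7.29, and Hist1h2ak 60.6, 55.2 and 91.2 against 3.81, 6.60 and 35.4. At the positive end were Hist1h1e (0.61 ± 0.59), Hist4h4 (2.18 ± 1.96) and Hist1h2bm (3.23 ± 1.86).

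The response to blockade was then compared between genotypes as an interaction. Over the members its median was 0.51 against 0.06 for all genes, with 31 positive and 21 negative, where 53% of all genes were positive, all 5 H1 genes being negative, and none passed by limma, edgeR or DESeq2, where 0% of all genes passed by limma and 0.648% by DESeq2. At an unadjusted p under 0.05, 2 members were positive and 1 negative, against 3.09% and 1.88% of all genes. Hist1h1e had the largest negative moderated statistic (-1.80 ± 0.73, limma adjusted p = 0.974), followed by Hist1h2bm (-4.22 ± 2.28) and Hist1h4d (-1.30 ± 0.94). Hist1h2ac (4.98 ± 1.96), Hist1h4i (1.46 ± 0.66) and Hist1h4f (3.0 ± 1.65) were at the positive end. Of these, Hist1h2ac lay near the limit of 3 reads in several samples. It had 3, 1 and 4 reads in Nr2f6-/- IgG2b samples and 28, 2, 11, 2, 1 and 39 in Nr2f6+/+ αPD-L1 samples. In library set 1 alone the median was -0.17, and among the 36 members with a mean of at least 50 it was 0.02. The 4 comparisons among groups share samples with each other and are not independent.

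Among the remaining genes with the highest means of their type, the H4 gene Hist1h4d had 369.7, 438 and 359 normalised counts in Nr2f6+/+ and 353, 63.4 and 138.5 in Nr2f6-/- αPD-L1 samples of set 1, without overlap, and 294, 485.5 and 308 against 580.3, 88.2 and 388 in set 2, where the genotypes overlapped. The log2 fold change of Hist1h4d in set 1 had an adjusted p of 0.564 by limma. Under αPD-L1 the H2A gene Hist2h2ac had 238 to 686 normalised counts in Nr2f6+/+ and 96.0 to 259.6 in Nr2f6-/- mice in set 1, and 236 to 330.3 and 213 to 446 in set 2. Hist3h2a, an H2A gene on chromosome 11, had 138 to 281 and 207 to 361 in set 1 and 88.2 to 239 and 33.3 to 479 in set 2. The genotypes overlapped for both genes in both sets. Of H2B, Hist2h2be had 107 to 372 and 23.4 to 318 in set 1 and 46 to 142 and 36.1 to 324 in set 2, and Hist1h2bb 53.3 to 364 and 40.1 to 304 in set 1 and 161 to 217 and 19.8 to 387 in set 2. Of H3, Hist1h3e had 31.3 to 273 and 24.2 to 139.8 in set 1, and Hist1h3i 21.3 to 126 and 123 to 335 in set 2. These 4 genes overlapped between genotypes in both sets as well.

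The spread between samples of a group was large for these genes, as for other genes of like level, which limits every comparison. For this spread the αPD-L1 groups were taken over both library sets. The 7 members with means of 300 to 1000 normalised counts had a median coefficient of variation within groups of 42.7%, against 36.8% for 3269 other genes in this range. Between means of 30 and 100, 19 members had 81.2% against 103% for 1792 others. From 100 to 300, 16 members had 53.65% against 60.02% for 2482 others. From 10 to 30, 10 members had 132% against 158% for 1630 others. Only in the highest range was the members' median above that of the others. Of the members, 32 had a read in all 18 samples. Hist2h2ab reached its mean through 154 normalised counts in Nr2f6+/+ αPD-L1 replicate 3 and was at 0 in 14 samples.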

How the data were processed

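CD3+ T cells from tumors of 18 samples were sequenced on the Ion Torrent Proton from 20 ng of total RNA with the Lexogen QuantSeq 3′ kit, which primes on poly(A). The authors cut adapters (Cutadapt) and low-quality bases (Trimmomatic) and dropped what was then under 22 nucleotides. STAR placed the rest on mm10, Bowtie2 what STAR had left, and a read with several placements counted at its primary one. Genes were counted with HTSeq-count and divided by DESeq2 size factors. Versions, annotation and strand setting are not given in the sources used here. The deposited values are thus a normalised signal, gene counts per size factor, not divided by length. In every sample 100% of values were whole multiples of 1 read (tolerance 0.02), and reads were recovered from them. Reads have no molecular identifiers, so limits of detection cover counting error only.

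Groups came from the genotype and treatment labels and library sets from the library numbers in the labels. Means of log2(value + 1) were compared with limma 3.58.1 (R 4.3.3) over all 18 samples, with a mean-variance trend and Benjamini-Hochberg adjustment over 11992 genes with a mean of at least 10, in a model of 4 groups and in one that split the αPD-L1 groups by library set. Fold changes are on this scale, which understates those of low genes. All values come from samples labelled as replicates, but no source states that each came from its own mouse, so p-values measure the spread between samples, which may be technical. No 2 of 153 pairs of columns were identical. Same-numbered replicates were checked for pairing. The alternatives were edgeR 4.0.16 and DESeq2 1.42.0 on the recovered reads (DESeq2 gave 51 of the 52 members an adjusted p), a pseudocount of 10, other filters and scalings, library set 1 alone, library set or replicate number in the model, only the groups compared, and leaving out each sample. Simulated data without a library-set difference were also run through limma in both models and through edgeR and DESeq2 in the model of 4 groups. Neither the edgeR and DESeq2 fits split by library set nor the response to blockade and the interaction were checked in this way. Transcripts and coordinates were from GENCODE vM21 (GRCm38), promoters from RefSeq (GRCm38.p6).

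The text names, per histone type, the 3 genes with the highest mean, per comparison the 3 with the highest and the 3 with the lowest moderated statistic, every gene called and those beside the limit of 10. Of other lists it names called genes or else the 2 with the highest mean. Genes named for not overlapping between groups, or for a call by DESeq2 or without 1 sample, were chosen after their values were seen. The members and lists were chosen with earlier results of these data known.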

Additional observations from a re-analysis of the deposited data

Results flagged for a closer look

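Among 72 sets of 6 αPD-L1 values of the histone sums and members, 6 held a sample far from the other 5. The rule used gives about 1 in 20 by chance only for independent values without skew. Here the sums contain the members and each set of 6 holds both library sets, so the number was not read against chance. In Nr2f6+/+ αPD-L1 replicate 2 these were the H3 sum of 2748, Hist1h1d with 1193 and the H3 gene Hist1h3g with 490.4 normalised counts. The others were Hist1h2bh with 18.9 in Nr2f6+/+ αPD-L1 replicate 5 and with 196 in Nr2f6-/- αPD-L1 replicate 5, and Hist1h2bl with 93.2 in Nr2f6-/- αPD-L1 replicate 6. Without Nr2f6+/+ αPD-L1 replicate 2 the median log2 fold change of the 52 members in library set 1 was -0.84.

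The ratio of Nr2f6-/- to Nr2f6+/+ means under αPD-L1 lay on opposite sides of 1 in the library sets, with no overlap of samples in either. It was 0.531 in set 1 and 1.63 in set 2 for H2A, 0.291 and 1.48 for H3, and 0.535 and 1.32 for all 52 genes. The difference between the sets was tested for single genes but was not tested for these sums.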

How the results depend on the processing

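No histone gene passed by limma with all samples, so none could lose a call. The members' median crossed 0 for the interaction in library set 1 alone and, with 1 sample left out, for genotype under αPD-L1 (without Nr2f6-/- replicate 2) and for αPD-L1 in Nr2f6+/+ (without IgG2b replicate 3). The number of all genes called depended on the test, and DESeq2 on recovered reads gave 184 for genotype under αPD-L1 (21 by limma), 88 under IgG2b (0), 94 for αPD-L1 in Nr2f6+/+ (29), 230.0 in Nr2f6-/- (39), 76 for the interaction (0), 375 for genotype in set 1 (85), 252 in set 2 (4), 469 between sets (62) and 264 for the difference of the genotype difference (7). In the same order, leaving out 1 sample at a time gave 9 to 27, 0 to 0, 6 to 29, 13 to 41, 0 to 0, 29 to 163, 1 to 10, 20 to 120 and 0 to 40 genes. Without a filter the counts were 9, 14, 17 for αPD-L1 in Nr2f6-/-, 5 for the interaction, 29 in set 1, 11 between sets and 0 for the difference between sets, and for that last one 2 with quantile normalisation and 4 with equal totals. Fitting only the groups compared gave 4, 15 and 19 genes for genotype under αPD-L1 and for αPD-L1 in Nr2f6+/+ and Nr2f6-/-, and library set 1 alone 34 for genotype and 8 for αPD-L1 in Nr2f6-/-. For αPD-L1 in Nr2f6+/+ a pseudocount of 10 gave 60, a filter at 50 gave 19, edgeR 19 and library set as a covariate 12, and under IgG2b a pseudocount of 10 gave 1. Of the histone genes, DESeq2 called 2, 5 and 3 for αPD-L1 in Nr2f6-/-, genotype in set 1 and its difference between sets, and leaving out 1 sample gave 0 to 1 in set 1 and 0 to 0 elsewhere. Their median was -0.78 for genotype under αPD-L1 in set 1 alone, 0.065 for αPD-L1 in Nr2f6-/- in set 1 alone, 0.70 for αPD-L1 in Nr2f6+/+ after quantile normalisation, and 0.018 (filter at 50) and -0.17 (set 1 alone) for the interaction. With 1 sample left out the medians, in the order above, were -0.29 to 0.02, -0.74 to -0.38, -0.06 to 0.37, 0.33 to 0.77, 0.18 to 0.81, -1.21 to -0.56, 0.52 to 0.89, 0.09 to 0.28 and 1.33 to 1.90. The cause of these differences was not tested. Scaling to equal totals moved the median of all genes by 0.12 in set 1 and by -0.21 in the difference between sets. Same-numbered samples did not deviate together (21 pairs, correlations -0.029 to 0.037), so the numbers were not read as pairs, and the replicate block gave 12 genes for αPD-L1 in Nr2f6+/+ and called no histone gene. With a spread of about 0.45 log2 between replicates in the members' median and with low counts for many members, small differences were not detectable.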
